A study of Bos indicus with 9 samples.

Results

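The genes described here are named after the proteins of the mitochondrial ribosome. A gene was included where a probe set of the array carried a single gene symbol starting with MRPL or MRPS followed by a digit, whatever its signal. This gave 67 genes of the 9120 represented on the array, with 84 probe sets. Each gene is given by its probe set with the highest mean over the 9 arrays. By name, 43 genes encode proteins of the large subunit and 24 of the small subunit.

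The mitochondrial ribosome translates the few messenger RNAs of the mitochondrial genome, which encode core subunits of the respiratory chain. Its RNA comes from mitochondrial DNA, while all of its proteins are encoded in the nucleus, made in the cytosol and imported. Part of the proteins descend from bacterial ribosomal proteins and carry their numbers, and the others were added in the mitochondrion. The corpus luteum, which forms from the ovulated follicle and secretes progesterone, starts steroid synthesis inside its mitochondria.

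The tissue was the corpus luteum of Nelore crossbred cows (Bos indicus) aged 2 to 5 years, taken at slaughter on day 6 after ovulation. Progesterone devices together with estradiol benzoate had synchronised the cycle of every animal, controls included. In the superovulated group 3 cows received 2000 IU of equine chorionic gonadotropin (eCG), a hormone that acts on the ovary through the receptors for luteinising and follicle-stimulating hormone, on day 4 of the protocol. In the stimulated group 3 cows received 400 IU on day 8, and in the control group 3 cows received no eCG. Dose and day of eCG changed together, so they cannot be told apart. RNA of each animal was hybridised to 1 array. The labels do not say how many corpora lutea of a superovulated cow were used.

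The tissue label was checked on the luteal steroidogenic genes STAR and CYP11A1, which had high signals on every array. STAR, which carries cholesterol into the mitochondrion, had signals of 14.55 to 14.84, and CYP11A1, which cuts the cholesterol side chain there, had 13.92 to 14.30. The 11 luteal steroidogenic markers measured had mean signals from 6.305 to 14.78, with a median of 13.78. Signals are read as log2 values, so a difference of 1 is a doubling, and signals of different probe sets are not compared as amounts of RNA. In tissue RNA, fewer cells of a type and less RNA per cell cannot be told apart. Macrophage and myeloid markers, measured for 17 of 20 listed genes, averaged 6.75 to 7.77 in superovulated, 6.86 to 7.58 in stimulated and 5.84 to 6.74 in control animals. The list was split. Against control, 15 markers were higher and 2 lower in either eCG group, with differences from -3.57 to 2.11 in stimulated animals. In superovulated minus stimulated 4 were higher and 13 lower, with differences from -1.76 to 4.25. The difference between 3′ and 5′ probe sets of the array's control transcripts, a sign of RNA integrity, averaged 0.109 to 0.180 in superovulated, 0.0300 to 0.126 in stimulated and 0.00830 to 0.0670 in control animals. The part of these values in the results below was not tested.

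The mean signals of the mitochondrial ribosomal protein genes over the 9 arrays had a median of 10.53, and those of all genes had one of 6.92, as brightness of probe sets. MRPL3, a large-subunit protein near the peptidyl transferase centre, was brightest at 12.31, and MRPL14, which lies at the face where the subunits meet, was dimmest at 5.46. MRPL28 was next dimmest at 7.33, and the other 65 genes lay above 8. Averaged over the 67 genes, the signal was 10.32, 10.15 and 10.43 in superovulated, 10.44, 10.07 and 10.24 in stimulated, and 10.38, 10.18 and 10.44 in control animals, in the order of their replicate numbers. The group averages were 10.30 ± 0.14 in superovulated, 10.25 ± 0.18 in stimulated and 10.33 ± 0.14 in control corpora lutea (SD, n = 3 each). The groups overlapped and their averages differed by less than the SD within any of them.

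**Figure D1:**
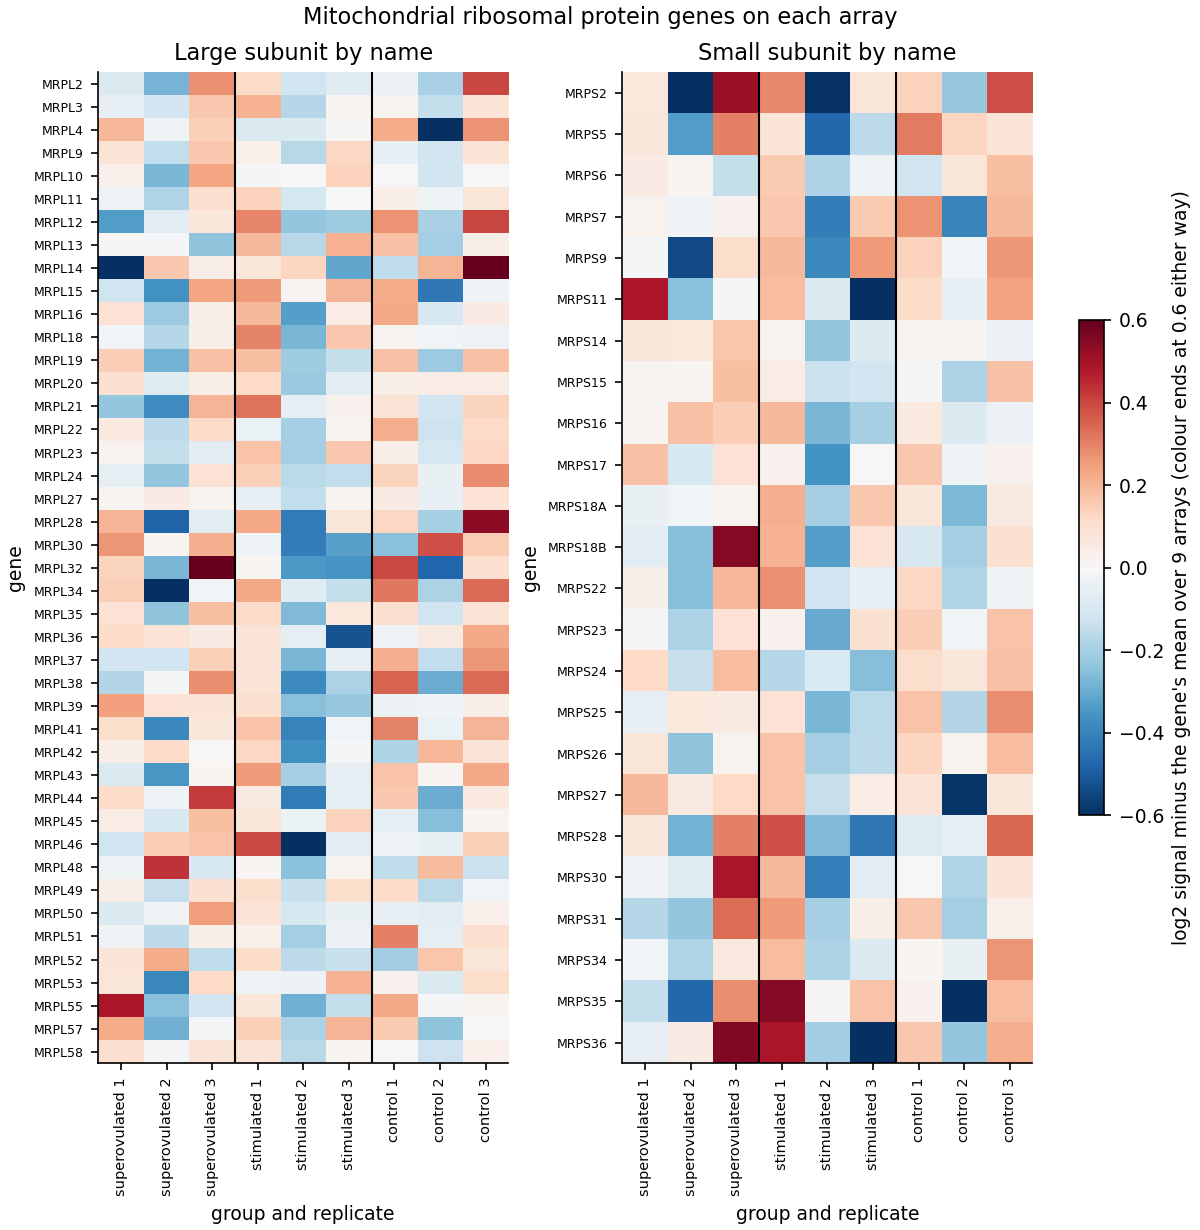
Signals of the 67 genes on the 9 arrays, as the log2 difference of each array from the gene's own mean, with large-subunit genes on the left and small-subunit genes on the right. Each row is a gene and each column an animal, with superovulated, stimulated and control animals separated by black lines. The columns of replicate 2 are mostly blue in all 3 groups, while no group is blue or red as a whole.

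No mitochondrial ribosomal protein gene passed the test for any difference among the 3 groups. The test was limma's moderated F test with Benjamini-Hochberg adjustment over all 23919 probe sets, in which 0.00418% of probe sets passed at an adjusted p under 0.05. At an unadjusted p under 0.05, 1 of the 67 genes was found, against 7.73% of all probe sets. For each of the 67 genes, the widest range among the 3 animals of a group exceeded the range of the 3 group means. The medians of these ranges were 0.49 within groups and 0.17 between group means, and the largest range of group means was 0.45. Ranges of single animals are mostly wider than ranges of means of 3 animals, also where no group differs. The same count over all genes was not made, so this one is no result about these genes. The spread itself was ordinary: the median within-group SD was 0.189 for these genes and 0.190 for the 3312 other genes with a mean signal between 8 and that of MRPL3.

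MRPS24, a protein of the small subunit, was the gene with the smallest p in that test. Its signals were 10.48, 10.23 and 10.55 in superovulated, 10.20, 10.27 and 10.11 in stimulated, and 10.47, 10.44 and 10.54 in control animals. All 3 stimulated animals lay below all 3 controls, and they overlapped with the superovulated animals, where replicate 2 was low. The group means were 10.42 ± 0.17 in superovulated, 10.19 ± 0.080 in stimulated and 10.48 ± 0.053 in control corpora lutea (SD, n = 3 each). The gene did not pass limma's F test, with an adjusted p of 0.635. A second probe set of MRPL20, not the brightest of its gene, had an adjusted p of 0.622 in the same limma F test.

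MRPL30, a large-subunit protein, had the next smallest p in the F test (limma adjusted p = 0.680). Its signals were 10.08, 9.83 and 10.03 in superovulated, 9.79, 9.40 and 9.49 in stimulated, and 9.57, 10.21 and 9.97 in control animals. Every superovulated animal lay above every stimulated one, while the controls spanned both groups. A second probe set of MRPL30 had a mean signal of 2.31, below the array medians of 4.18 to 4.24 where a probe set carries little signal, so its differences bear little on the gene.

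MRPL39, a large-subunit protein with a fold resembling that of a tRNA synthetase, had 10.48, 10.32 and 10.31 in superovulated, 10.33, 9.99 and 10.01 in stimulated, and 10.20, 10.21 and 10.27 in control animals. Its superovulated signals all lay above the controls. MRPS14, a small-subunit protein with a bacterial counterpart, had 11.21, 11.21 and 11.31 in superovulated, 11.17, 10.91 and 11.06 in stimulated, and 11.17, 11.16 and 11.11 in control animals. Its superovulated signals lay above those of both other groups. The limma F test gave an adjusted p of 0.682 for MRPL39 and 0.683 for MRPS14.

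MRPL43, another large-subunit protein, had 9.79, 9.53 and 9.89 in superovulated, 10.14, 9.68 and 9.83 in stimulated, and 10.05, 9.89 and 10.11 in control animals. The highest superovulated signal was level with the lowest control one, and the limma F test gave an adjusted p of 0.753.

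**Figure D2:**
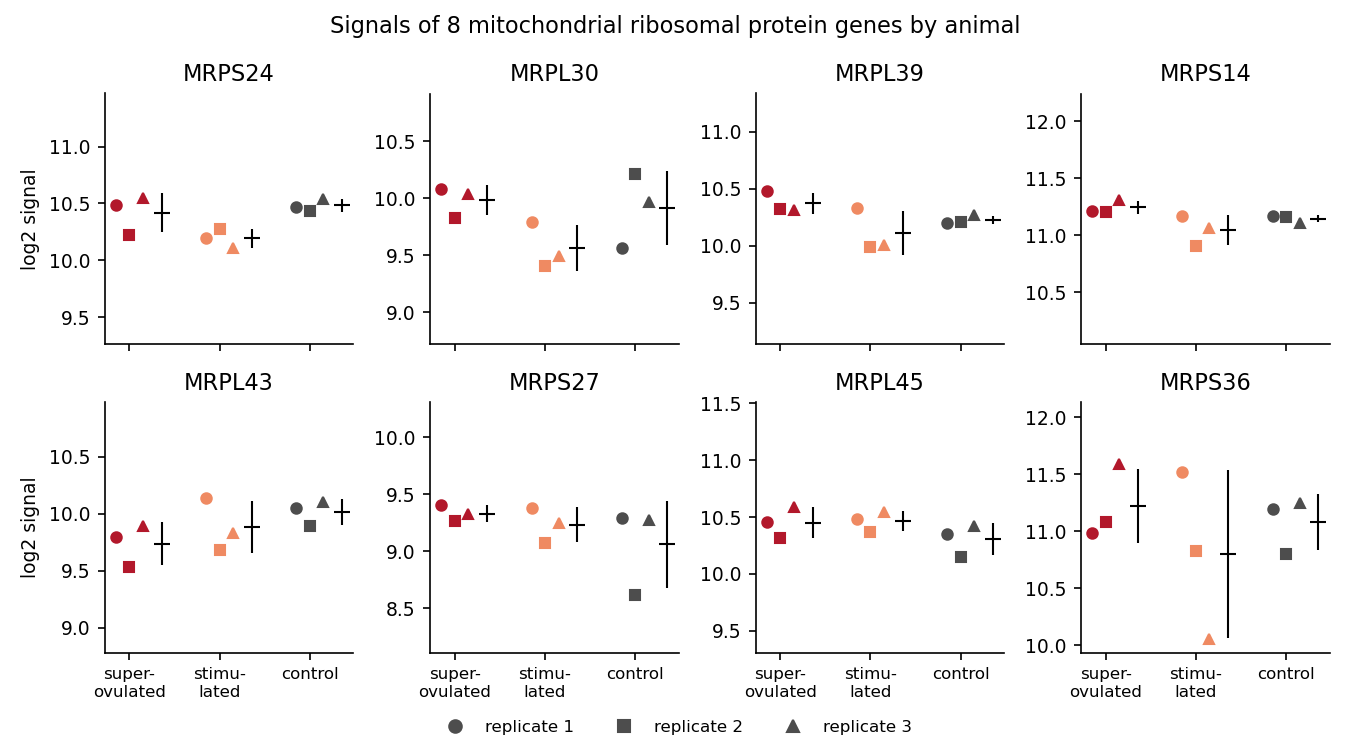
Signals of 8 genes by animal, on log2 axes that each span the same distance. Symbols mark the replicate numbers 1, 2 and 3, colours mark superovulated, stimulated and control animals, and the cross beside each group gives its mean and SD (n = 3). In MRPS24 the stimulated animals lie below the controls, in MRPL30 they lie below the superovulated ones, and in MRPS36 stimulated replicate 3 stands at 10.05.

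Superovulated against control corpora lutea, the comparison of the high early eCG dose with synchronisation alone, showed no gene of the mitochondrial ribosome passing, as for all probe sets in the same limma fit (0% passed in either direction). At an unadjusted p under 0.05 the count was 0 of 67 in each direction, against 2.6% of all probe sets higher and 3.61% lower. The median log2 difference was -0.02, with 29 positive and 38 negative values between -0.40 and 0.27, and the median over all genes was 0.01. The sign of the median turned with single animals left out: it was 0.04 without superovulated replicate 2, 0.01 without control replicate 1 and 0.02 without control replicate 3. In 2 genes every superovulated animal lay above every control, and in 0 genes below, against 5.18% and 5.72% of all probe sets. These were MRPL39 and MRPS14. A second probe set of MRPL20, with a mean signal of 10.45, had every superovulated animal below every control, at -0.17 (limma adjusted p = 0.851). The brightest MRPL20 probe set had -0.02 and overlapped.

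The smallest p belonged to MRPL43, with a log2 difference of -0.28 (SE 0.14, limma adjusted p = 0.817). MRPL24, whose bacterial counterpart takes part in early assembly of the large subunit, had 11.21, 11.03 and 11.35 in superovulated and 11.40, 11.22 and 11.55 in control animals, a difference of -0.19 (SE 0.13). MRPL51, a large-subunit protein, had 11.35, 11.22 and 11.41 in superovulated and 11.68, 11.32 and 11.48 in control animals, a difference of -0.16 (SE 0.11). Both overlapped between the groups, and both had a limma adjusted p of 0.856.

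Among the other negative values, MRPL14 had -0.40 (SE 0.28) and MRPL34 had -0.31. MRPL14 was low in superovulated replicate 1 (4.72) and high in control replicate 3 (6.06), and its difference was -0.12 without the first of these and -0.21 without the second. MRPL34 had -0.09 without superovulated replicate 2, its lowest animal at 9.48, and -0.49 without control replicate 2. On the positive side, MRPS27, a small-subunit protein of the pentatricopeptide repeat family, had 0.27 (SE 0.18), MRPL44, which resembles ribonuclease III, 0.19, MRPL39 0.15, MRPL45, which lies at the tunnel exit by the inner membrane, 0.14, and MRPS14 0.10. The value of MRPS27 rested on control replicate 2, which stood at 8.62 against 9.29 and 9.28 in the other controls. Without that animal the difference was 0.05. For MRPL39 a second probe set of similar signal (mean 9.82) had -0.07. The remaining one had -0.39 at a mean signal of 3.37, below the array medians, and with it the mean of all 3 gave -0.11. The limma adjusted p values of these genes were 0.856 or more.

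Stimulated against control corpora lutea, the comparison of the low late dose with synchronisation alone, again had 0 of 67 genes passing in limma, against 0% of all probe sets higher and 0.00418% lower. An unadjusted p under 0.05 was reached by 0 genes with higher and 1 with lower signal, against 3.69% and 2.73% of all probe sets. The gene was MRPS24, with -0.29 (SE 0.095, limma adjusted p = 0.701). Among the probe sets used, it was also the only gene of the 67 whose stimulated animals all lay on 1 side of the controls. Of all probe sets, 5.8% were higher and 5.71% lower in this way. The second probe set of MRPL20, with a mean signal of 10.45, also had all stimulated animals below the controls. Its difference was -0.36 (SE 0.11, limma adjusted p = 0.641), against -0.10 for the brightest MRPL20 probe set. The median log2 difference was -0.10, with 20 positive and 47 negative values between -0.35 and 0.37, beside a median of -0.003 over all genes.

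That median depended on single animals. Without stimulated replicate 2 it was 0.01, with 34 positive and 33 negative values, and without stimulated replicate 1 it was -0.19, with 12 positive and 55 negative. Without control replicate 2 it was -0.15, with 60 negative values.

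After MRPS24 the smallest p values were those of MRPL30, with -0.35 (SE 0.17, limma adjusted p = 0.802), and MRPS5, with -0.35 (SE 0.19, limma adjusted p = 0.832). MRPS5, a small-subunit protein whose bacterial counterpart is known for its part in decoding accuracy, had 10.56, 10.01 and 10.33 in stimulated and 10.79, 10.61 and 10.56 in control animals. Stimulated replicates 2 and 3 lay below all controls and replicate 1 was level with the lowest. MRPL36, a large-subunit protein with a bacterial counterpart, had 10.34, 10.21 and 9.74 in stimulated and 10.23, 10.31 and 10.49 in control animals, a difference of -0.25, or -0.07 without stimulated replicate 3. MRPL51 had -0.19, or -0.09 without control replicate 1.

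The positive values with the smallest p were 0.37 for MRPS35, 0.24 for MRPL15, 0.17 for MRPS27, 0.16 for MRPL45 and 0.11 for MRPS18A, with limma adjusted p values of 0.863 or more. MRPS35 and MRPL15 were low in control replicate 2, at 8.06 and 10.37, against 8.69 and 8.85 and against 11.03 and 10.78 in the other controls. Without that animal MRPS35 had 0.14 and MRPL15 0.06, and the sign of MRPS27 and MRPS18A turned, to -0.05 and -0.003.

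Superovulated against stimulated corpora lutea, the comparison of both eCG protocols, had 0 of 67 genes passing in limma, against 0.00418% of all probe sets higher and 0% lower. An unadjusted p under 0.05 was reached by 4 genes with higher and 0 with lower signal, against 4.07% and 5.61% of all probe sets. In 2 genes, MRPL30 and MRPS14, every superovulated animal lay above every stimulated one, and 0 genes showed the reverse, against 6.64% and 6.9%. The median log2 difference was 0.04, with 40 positive and 27 negative values between -0.35 and 0.45, and the median over all genes was 0.01. Without stimulated replicate 2 the median was -0.06, and without stimulated replicate 1 it was 0.12. With superovulated replicate 3 left out the median was -0.03, and with superovulated replicate 2 left out 0.11.

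The 4 genes were MRPL30, with 0.42 (SE 0.17), MRPL39, with 0.26 (SE 0.10), MRPS24, with 0.23 (SE 0.095), and MRPS14, with 0.20 (SE 0.079). Their limma adjusted p values ran from 0.492 for MRPL39 and MRPS14 to 0.507 for MRPS24. For MRPL39 the second probe set of similar signal had 0.09, and the one below the array medians had -0.25. This comparison shares its stimulated animals with the one before and is not separate from it. MRPL44 followed with 0.31. The largest positive value, 0.45 for MRPL32, rested on superovulated replicate 3, at 9.77 beside 9.10 and 8.69, and its 95% interval ran from -0.26 to 1.17. Negative values with the smallest p were -0.35 for MRPS35, -0.24 for MRPL15, -0.23 for MRPL21, -0.16 for MRPL13 and -0.14 for MRPL43. With single animals left out they ran from -0.55 to -0.17 for MRPS35, from -0.40 to -0.10 for MRPL15, from -0.40 to -0.11 for MRPL21, from -0.29 to -0.08 for MRPL13 and from -0.25 to -0.02 for MRPL43.

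The named differences were also computed with single animals left out. Of the 30 differences with the smallest p, 10 in each comparison, 26 moved by more than 1.5 times or turned sign when some single animal was left out. The other 4 were MRPS24 in stimulated minus control, from -0.33 to -0.25, and 3 in superovulated minus stimulated. These were MRPL30, from 0.34 to 0.53, MRPL39, from 0.20 to 0.38, and MRPS24, from 0.16 to 0.32.

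**Figure D3:**
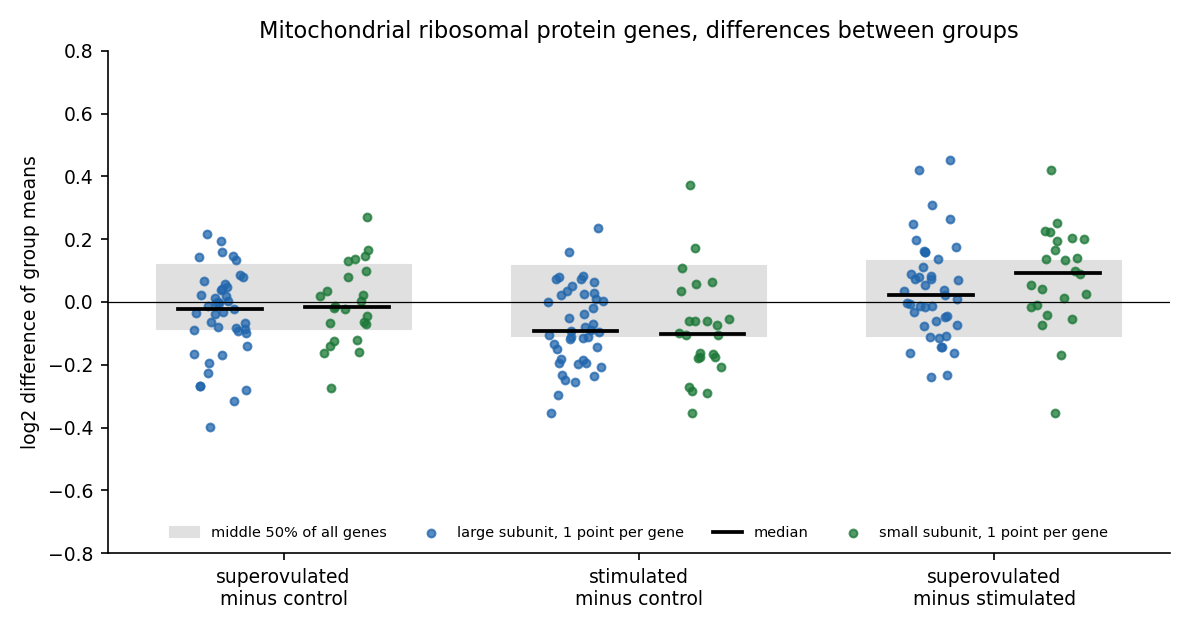
Log2 differences of group means for the 67 genes in the 3 comparisons, with 43 large-subunit genes in blue and 24 small-subunit genes in green. Black bars are medians and grey boxes span the middle 50% of all 9120 genes. The points of both subunits lie between -0.40 and 0.45 and their medians lie inside the grey boxes.

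The intervals give a range for the difference of 1 gene in 1 comparison at a time, with no adjustment over genes. The 95% interval of the difference lay within a log2 change of 1 either way for 66 genes in superovulated minus control, 66 in stimulated minus control and 65 in superovulated minus stimulated. The exceptions were MRPL14, MRPS36, and MRPL32 together with MRPS36. Over all genes the shares within 1 were 86.5%, 85.9% and 85.3%. Within 0.5 either way it lay for 43, 37 and 40 of the 67 genes in the same order. These are 64.2%, 55.2% and 59.7%, near the 57.3%, 56.1% and 55.1% of all genes. No gene differed by more than 0.5 in any comparison, where 6.12%, 7.88% and 7.73% of all genes did.

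MRPS36 had the largest SD over the 9 arrays, 0.46. Its signals were 10.98, 11.08 and 11.59 in superovulated, 11.52, 10.82 and 10.05 in stimulated, and 11.20, 10.80 and 11.25 in control animals. Stimulated replicates 1 and 3 thus held the second-highest and the lowest signal of all. Despite its name, the protein is now known as a subunit of the 2-oxoglutarate dehydrogenase complex. MRPL27, a large-subunit protein, had the smallest SD, 0.071, with signals between 11.88 and 12.11 on all arrays.

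Large- and small-subunit genes moved little apart. In superovulated minus control the median was -0.02 for both the large and the small subunit. In stimulated minus control it was -0.09 for the large and -0.10 for the small subunit. In superovulated minus stimulated it was 0.02 for the large and 0.09 for the small subunit, a gap of -0.07. Among single animals of a group, the difference between the mean deviations of both subunits had an SD of 0.055. That SD is of means in single animals and the gap is of medians between groups, so it does not measure the spread of the gap. MRPS18A and MRPS30 are named after the small subunit but sit in the large one. With both counted there, and MRPS36 still kept in the small subunit, the gap between the medians was 0.007, 0.02 and -0.07 in the 3 comparisons. Without superovulated replicate 2 the gap in superovulated minus control was -0.07.

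Genes numbered after a bacterial protein had a median difference of -0.02 in superovulated minus control, and the others 0.01. In stimulated minus control the medians were -0.09 and -0.11, and in superovulated minus stimulated 0.04 and 0.08. The counts were 37 numbered genes and 30 others.

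Genes followed for their roles had small differences. MRPL12, which forms the stalk that recruits translation factors and is also reported to bind the mitochondrial RNA polymerase, had -0.27 in superovulated minus control and -0.21 in stimulated minus control. It was 10.45 in superovulated replicate 1 and 10.72 and 10.85 in the others, against 11.05, 10.59 and 11.18 in controls. MRPL11, at the base of that stalk, had -0.07 and -0.02, and MRPL3 had 0.01 and 0.03. MRPL58, a peptidyl-tRNA hydrolase that became part of the large subunit, had 0.09 and 0.00.

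In the small subunit, MRPS7, which binds the ribosomal RNA early in assembly, had -0.01 in superovulated minus control and -0.05 in stimulated minus control. MRPS22, in which mutations are known in human ovarian failure, had 0.02 and 0.06, and MRPS16 had 0.13 and -0.07. MRPS34 had -0.12 and -0.11. MRPS18B, of the same small family as MRPS18A, had 0.15 and 0.06, and MRPS30 had 0.16 and -0.06. All limma adjusted p values of these genes were 0.870 or more, and their groups overlapped in both comparisons. MRPS12 and MRPS18C had no probe set with that single symbol.

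Of the 67 genes, 14 had more than 1 probe set, with 17 beside those used. Of these, 6 had mean signals below the array medians and are not counted here. The other 11 had the same sign as the brightest probe set in 7 cases for superovulated minus control, 11 for stimulated minus control and 10 for superovulated minus stimulated.

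The clearest pattern in these genes ran between animals, not between groups. In superovulated, stimulated and control animals alike, the one with replicate number 2 had the lowest signal of its group in 48, 57 and 54 of the 67 genes. These are 71.6%, 85.1% and 80.6%, and for the 3312 other genes of similar signal the shares were 40.0%, 48.0% and 38.7%. Both subunits did so. Replicate 2 was lowest in all 3 groups in 23 of 43 large-subunit and 13 of 24 small-subunit genes, together 53.7%, against 18.0% of the genes of similar signal and 12.8% of all genes. No gene had replicate 1 or replicate 3 lowest in all 3 groups, against 4.56% and 2.48% of the genes of similar signal. Only MRPL14 and MRPL36 had replicate 2 lowest in none. Signals below the gene's own 9-array mean were found in 51 genes in superovulated, 64 in stimulated and 54 in control replicate 2. These are 76.1%, 95.5% and 80.6%, against 53.3%, 58.4% and 52.4% of the genes of similar signal. The replicate numbers come from the labels, which tie the animals of 1 number by nothing else. This pattern was noticed in the data and has no test.

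**Figure D4:**
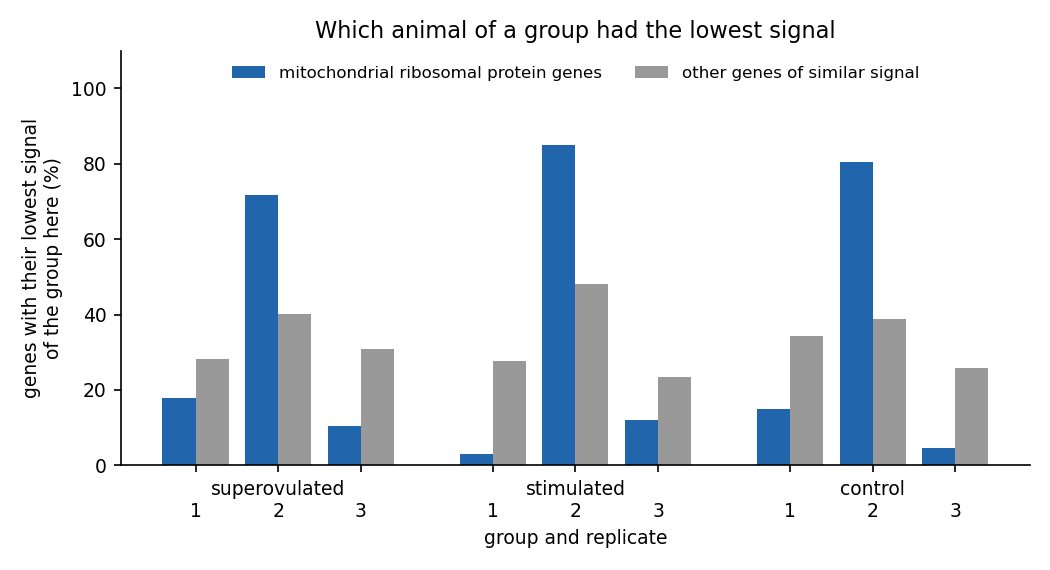
Share of genes, in percent, that had their lowest signal of the group in each animal, for the 67 mitochondrial ribosomal protein genes in blue and 3312 other genes of similar signal in grey. Bars start at 0 and the 3 bars of a colour within a group add up to about 100%. Replicate 2 holds 71.6%, 85.1% and 80.6% of the blue genes in superovulated, stimulated and control animals.

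Examples show the size. MRPL44 had 10.47 in superovulated replicate 2 beside 10.60 and 10.91, 10.07 in stimulated replicate 2 beside 10.55 and 10.44, and 10.19 in control replicate 2 beside 10.65 and 10.55. MRPS7 had 9.01 in stimulated replicate 2, where both others had 9.58, and 9.02 in control replicate 2, beside 9.69 and 9.61. Its superovulated signals were level, at 9.44, 9.40 and 9.45. MRPS22 had 10.27 in superovulated, 10.41 in stimulated and 10.35 in control replicate 2, each the lowest of its group.

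The lists of other genes of mitochondrial translation leaned the same way. Replicate 2 was the lowest superovulated, stimulated and control animal in 14, 17 and 18 of 24 assembly genes, in 10, 9 and 12 of 14 translation factors, and in 11, 15 and 9 of 17 mitochondrial aminoacyl-tRNA synthetases. For genes of mitochondrial DNA maintenance and transcription the counts were 10, 15 and 11 of 21. Over all genes the shares were 35.4%, 41.4% and 38.5%, beside 47.6%, 71.4% and 52.4% for that last list. Cytosolic ribosomal protein genes did not lean this way in superovulated and control animals, with 9, 35 and 12 of 62. They were also far more level, with a median within-group SD of 0.035 at a median signal of 14.22.

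The averages of several marker lists of the tissue's cell types moved with these animals, while single markers were split. Luteal steroidogenic markers, measured for 11 of 15 listed genes, averaged 12.25, 12.30 and 12.33 in superovulated, stimulated and control replicate 2, and 12.42 to 12.66 in the other 6 animals. In the same order, replicate 2 was the lowest of its group in 9, 9 and 6 of the 11. Endothelial markers, 14 of 17 measured, averaged 7.50, 7.74 and 7.64 in the replicates 2, and 6.70 to 7.33 in the others. Replicate 2 was the highest of its group in 6, 14 and 12 of these 14, and superovulated replicate 1 was the highest in 7. Myeloid markers averaged 7.77, 7.58 and 6.74 in the replicates 2, each the highest of its group, with 15, 13 and 10 of the 17 markers highest there.

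Pericyte and smooth muscle markers, 10 of 12 measured, were on average also highest of their groups there, at 9.12, 8.95 and 8.94, with 7, 10 and 7 of the 10 highest. Fibroblast markers, 8 of 10 measured, were so in superovulated and stimulated animals, at 13.08 and 12.54, but at 12.42 in control replicate 2 they lay below replicate 3 with 12.46. Markers of T and NK cells, 15 of 18 measured, averaged 3.40 in superovulated and 3.41 in control replicate 2, each the highest of its group. In stimulated replicate 2 they averaged 3.28, the lowest of its group. These averages lie below the array medians, where a probe set carries little signal, so their order bears little on these cells. No array value is at 0, so no marker can be called absent. Cell cycle genes averaged 8.89 in superovulated and 9.20 in control replicate 2, where 21 of 23 genes were the highest of their group in each, and 7.75 in stimulated replicate 2, beside 7.78 and 7.34.

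Actin and cyclophilin, read as signs of RNA integrity, also moved with replicate 2, but in opposite directions. The 3′ minus 5′ difference of actin was -0.64, -0.46 and -0.53 in superovulated, stimulated and control replicate 2, the lowest of each group, and that of cyclophilin was 0.31, 0.32 and 0.18, the highest of each. The other 4 control transcripts had no such order in all 3 groups. The part of cell composition, proliferation and RNA integrity in the signals of mitochondrial ribosomal protein genes was not tested.

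**Figure D5:**
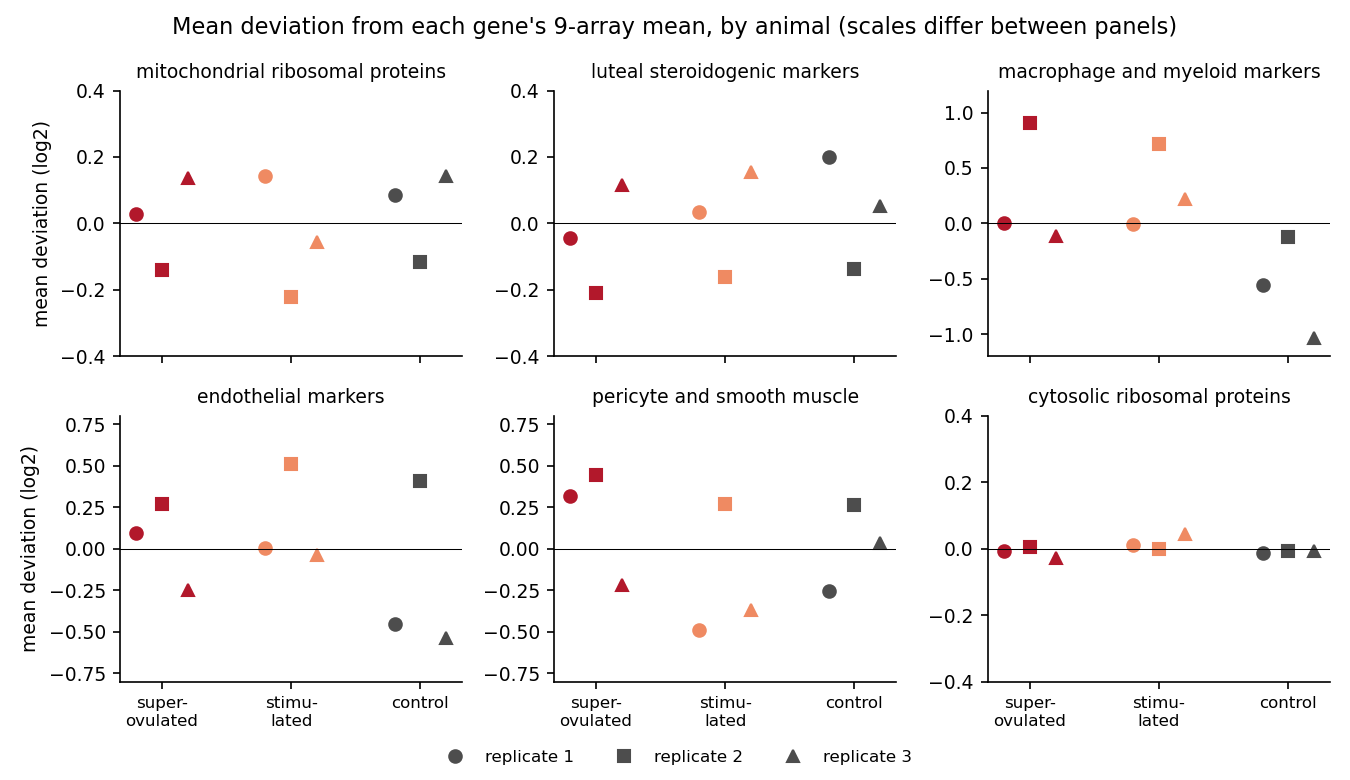
Mean deviation of each animal from the 9-array mean of each gene (log2), for mitochondrial ribosomal protein genes, luteal steroidogenic, myeloid, endothelial and pericyte markers and cytosolic ribosomal protein genes. Symbols mark replicate numbers, and the vertical scales differ between panels. Squares, replicate 2, are lowest of their group in the first and second panels and highest in the myeloid, endothelial and pericyte panels.

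Without all 3 animals numbered 2, a choice made after the pattern was seen, the median differences of the 67 genes were -0.007 for superovulated minus control, -0.07 for stimulated minus control and 0.02 for superovulated minus stimulated. The number of genes passing was again 0 in each comparison, with smallest limma adjusted p values of 0.935, 0.592 and 0.524.

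The 5 mitochondrial ribosomal proteins measured here under other names, of 7 listed, had no gene passing. DAP3, a GTP-binding protein of the small subunit, had 8.82, 8.62 and 8.81 in superovulated, 8.66, 8.06 and 8.41 in stimulated, and 8.72, 8.33 and 8.54 in control animals. Its difference was 0.37 in superovulated minus stimulated (SE 0.16, limma adjusted p = 0.528) and 0.22 in superovulated minus control. GADD45GIP1, a large-subunit protein, had 0.27 in superovulated minus control and 0.22 in stimulated minus control, and PTCD3, of the small subunit, had -0.12 in superovulated minus control. CHCHD1 had 0.04 in superovulated minus stimulated.

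Assembly and RNA-modifying factors, 24 of 35 measured, also had 0 genes passing. At an unadjusted p under 0.05, 0 were higher and 2 lower in superovulated minus control, 0 and 2 in stimulated minus control, and 1 and 1 in superovulated minus stimulated. Over all probe sets the shares higher and lower were 2.6% and 3.61%, 3.69% and 2.73%, and 4.07% and 5.61%. NGRN, which is needed for stability of the large ribosomal RNA, had 10.01, 10.05 and 10.07 in superovulated, 10.59, 10.29 and 10.45 in stimulated, and 10.34, 10.37 and 10.27 in control animals. Every superovulated signal lay below all others. The difference was -0.28 against control (SE 0.084, limma adjusted p = 0.754) and -0.40 against stimulated (limma adjusted p = 0.325).

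MPV17L2, a factor in assembly of both subunits, had 9.04, 8.74 and 9.31 in superovulated and 9.83, 9.34 and 9.94 in control animals, a difference of -0.67 (SE 0.20, limma adjusted p = 0.754). The lowest control, replicate 2, stood just above the highest superovulated animal. TFB1M, which methylates the small ribosomal RNA, had 8.10, 7.11 and 7.34 in superovulated, 6.96, 6.56 and 6.77 in stimulated, and 7.35, 6.63 and 6.73 in control animals. The superovulated animals lay above the stimulated ones, with a difference of 0.75 (limma adjusted p = 0.482), and overlapped with controls, with 0.62 (limma adjusted p = 0.808). NSUN4, an RNA methyltransferase, and RPUSD3, a pseudouridine synthase, had -0.31 and -0.57 in stimulated minus control (limma adjusted p = 0.773 and 0.777).

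Translation factors, 14 of 18 measured, and genes of mitochondrial DNA maintenance and transcription, 21 of 35, had 0 genes passing. At an unadjusted p under 0.05 only GFM2, a factor of ribosome recycling, was found, higher in superovulated minus stimulated with 0.44 (SE 0.18, limma adjusted p = 0.496), where 4.07% of all probe sets were higher at that p. RMND1, linked to mitochondrial translation at the inner membrane, had the widest differences, -1.37 in stimulated minus control and 1.42 in superovulated minus stimulated, each with an SE of 0.62. NRF1, a transcription factor of nuclear genes for mitochondria, had -0.32 in superovulated minus control (limma adjusted p = 0.804). TFB2M, of the mitochondrial transcription machinery, had 0.16 in superovulated minus stimulated.

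Mitochondrial aminoacyl-tRNA synthetases, 17 of 25 measured, had 0 genes passing. LARS2, which charges the mitochondrial leucine tRNA, had 3.26, 2.40 and 3.16 in superovulated, 3.45, 3.68 and 3.71 in stimulated, and 3.75, 3.92 and 4.10 in control animals. The superovulated animals lay below all others, by -0.99 against control (SE 0.22, limma adjusted p = 0.631) and by -0.67 against stimulated (limma adjusted p = 0.449). These signals lie below the array medians. VARS2, for valine, had 0.25 in stimulated minus control, and AARS2, for alanine, had -0.46 in superovulated minus stimulated (limma adjusted p = 0.715 and 0.464).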

How the data were processed

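RNA from the corpora lutea of 9 animals was measured on Affymetrix bovine arrays, 1 per animal. The deposited values had lost their decimal mark and stand as runs of digits in no standard unit. The mark was restored from the values, and they are read as log2 signals because they then run from 0.85 to 15.85. How the authors summarised and normalised them is not given in the sources used here, and no further normalisation was applied. A run starting with 1 can be read as 1.x or 1x.x, below a scanner limit of 16. Such runs made up 15.5% of cells. Of the 84 probe sets of mitochondrial ribosomal protein genes, 27 had none, 14 were settled by other arrays and 43 were open on all 9 arrays. These 43 were read as bright from their spread, at posterior probabilities of 0.963 or more. Undecided probe sets (97) were left out.

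Symbols were taken from the platform's annotation of the array, and 66 of the 67 also stand in RefSeq's gene table. The table's build was not matched to the array, so no positions are given. All 23919 probe sets were fitted with limma (version 3.58.1, R 4.3.3) as 3 group means, with lmFit and eBayes, 2-sided tests and Benjamini-Hochberg adjustment over all of them, and tested on simulated data. A gene passed at an adjusted p under 0.05. Intervals are 95% intervals of that fit. Arrays carry no read depth, and their number limits the precision. The labels call the samples biological replicates, 1 animal each.

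Named are, per comparison and direction, the 5 genes with the smallest p, the 5 smallest in the F test, the extremes of signal and SD, genes followed for a role, and the 3 smallest p of each related list. MRPL32, MRPL28 and the examples of the pattern between animals were chosen after their values were seen. The genes and lists were chosen with earlier results of these data known. Alternatives were other settings of the fit, quantile normalisation, the mean of all probe sets, probe sets with no open run, no dim probe sets, subunits by structure, a replicate block and leaving out animals.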

Additional observations from a re-analysis of the deposited data

How the results depend on the processing

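In every alternative run, 0 of the tested mitochondrial ribosomal protein genes passed in any comparison. Over all probe sets, the number passing for any difference among groups was 1 and ran from 1 to 2 with single animals left out, and was 0 without the 3 animals numbered 2. For superovulated minus control it was 0, ran from 0 to 1 with single animals left out, and was 1 with only the arrays of both groups in the fit. For stimulated minus control it was 1, ran from 1 to 2 with single animals left out, and was 0 without the 3 animals numbered 2. For superovulated minus stimulated it was 1, ran from 1 to 3 with single animals left out, was 2 under quantile normalisation and with probe sets that have no open digit run, and was 0 without the 3 animals numbered 2. With single animals left out, the median difference of the genes ran from -0.10 to 0.04 for superovulated minus control, from -0.19 to 0.01 for stimulated minus control and from -0.06 to 0.12 for superovulated minus stimulated. The gap between the subunits' medians ran from -0.075 to 0.0015, from -0.02 to 0.04 and from -0.10 to -0.04 in the same order. Over the 14 genes with no open digit run the gap was -0.14 in stimulated minus control and 0.12 in superovulated minus stimulated, a turn of sign in both. The sign of MRPL39 in superovulated minus control turned to -0.11 with the mean of its probe sets, 1 of which lies below the array medians, and in stimulated minus control those of MRPS18A and MRPS27 turned to -0.0033 and -0.049 without control replicate 2, with ranges up to 0.24 and 0.29 over single animals left out. Causes of these shifts were not tested.

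With the replicate number as a block, 3 probe sets passed in stimulated minus control, 0 in superovulated minus control and 1 in superovulated minus stimulated, and at an unadjusted p under 0.05 the genes counted 5, 3 and 3 of 67 in that order (7.46%, 4.48% and 4.48%), against 8.47%, 8.28% and 11.5% of all probe sets. Over all probe sets the deviations of same-numbered animals correlated between -0.04 and 0.38 (median 0.16), and those of animals with different numbers between -0.36 and 0.26 (median -0.11). The 3 pairs of animals numbered 2 had 0.27, 0.35 and 0.38. Of the 9 same-numbered pairs, 2 lay under 0.1. The labels name no shared origin, so the numbers were not taken as pairs in the main fit, and a shared origin was not tested.

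With 3 animals a group the median SE of a gene's difference was 0.14, and no difference of these genes, up to 0.45 in size, passed after adjustment over 23919 probe sets.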
